A study of Sus scrofa with 70 samples.

Results

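The microRNAs ssc-miR-184, ssc-miR-217 and ssc-miR-216 were followed through 5 reproductive glands of boars of 2 pig breeds. They were chosen by name, on their abundance (RPM, reads scaled to the total of miRNA reads of a library) in 1 breed against the other in each gland, so the breed values given here are a description and carry no test. The deposited miRNA table held 5 entries for these 3 miRNAs among 743 entries with 676 different names. Of the 5, ssc-miR-184 had 1 entry, while ssc-miR-217 and ssc-miR-216 had 2 entries each with identical values in every library, which were counted once. All 5 entries reached 1 RPM in 3 or more of the 30 small RNA libraries, the filter for testing, as did 526 entries in all.

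The boars were 12 months old and belonged to the Banna mini-pig inbred line (BMI), which descends from Diannan small-ear pigs by close inbreeding, or to Diannan small-ear pigs themselves (DSE), which are not inbred. The glands were the testis, the epididymis and the 3 accessory glands (bulbourethral, vesicular and prostate), each with 3 small RNA libraries and 3 RNA-seq libraries per breed and with 1 long-read Iso-seq library per breed, which makes 70 samples. No treatment was given, and the labels do not tie libraries to individual boars. Replicates may therefore share an animal across glands, and p-values measure only the spread between these libraries.

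A miRNA is cut from a hairpin precursor and guides an Argonaute protein to messenger RNAs that pair with its seed, the bases near its 5′ end, which usually lowers their stability or translation. miR-184 is a conserved miRNA with a gene of its own, best known from the cornea, the lens, skin keratinocytes and neural progenitors, and in the mouse it lies next to the imprinted gene Rasgrf1. miR-217 and miR-216 come from neighbouring hairpins of a conserved cluster and are best known from the acinar cells of the pancreas.

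The mature sequences identify what was counted, and are shown 5′ to 3′ as read from the Sscrofa11.1 genome at the positions RefSeq gives, with the seed (bases 2 to 8) in capitals.
ssc-miR-184: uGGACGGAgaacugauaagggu
ssc-miR-217: uACUGCAUcaggaacugauuggau
ssc-miR-216: uAAUCUCAgcuggcaacugugag

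The 3 seeds differ from each other, and no other mature pig miRNA among the 369 names in RefSeq had any of them. Each mature sequence had 1 exact copy in the assembly, searched on both strands, so reads of these miRNAs could be placed at 1 locus each. The hairpins follow, with the mature miRNA in capitals, to show the arm from which each comes.
MIR184: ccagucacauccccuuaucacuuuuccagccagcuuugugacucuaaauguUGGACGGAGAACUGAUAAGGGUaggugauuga
MIR217-1: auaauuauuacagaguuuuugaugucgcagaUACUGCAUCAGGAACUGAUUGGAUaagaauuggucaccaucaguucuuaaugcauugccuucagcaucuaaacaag
MIR216-1: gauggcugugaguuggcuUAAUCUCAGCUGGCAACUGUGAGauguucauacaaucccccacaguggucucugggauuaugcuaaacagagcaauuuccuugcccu

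Mature miR-184 began at base 52 of its hairpin of 83 bases, in the 3′ arm. The mature forms of miR-217 and miR-216 began at bases 32 and 19 of their hairpins, in the 5′ arm.

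The mir-184 precursor lies at chr7:48345017-48345099 on the plus strand, with the same position in the deposited annotation and in RefSeq. No gene of the deposited annotation overlapped it, whereas RefSeq places it in an intron of the lncRNA LOC106507693 (chr7:48340823-48349334), on the same strand. The nearest genes with a symbol were RASGRF1, 98268 bp before it, and ANKRD34C, 60057 bp after it. The mir-216-1 precursor lies at chr3:85334523-85334627 and mir-217-1 at chr3:85341255-85341361, both on the plus strand and 6627 bp apart. RefSeq places both in an intron of CCDC85A (chr3:84958384-85649854), which runs on the opposite strand, while CCDC85A of the deposited annotation ends before them at base 85165587. The next gene with a symbol was EFEMP1, which starts 66214 bp after mir-217-1.

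The depth differed between glands. Library sizes recovered from the smallest RPM steps ran from 1294539 to 11815173 miRNA reads in testis and from 13068277 to 21680373 in the other glands. In testis the breeds were apart in depth, with 1294539 to 2722683 reads in BMI and 2978117 to 11815173 in DSE, and over the libraries with whole reads recovered they were also apart in epididymis (14067925 to 14616740 in 2 BMI libraries and 19525039 to 21428664 in 3 DSE libraries) and vesicular gland (14218843 to 16089394 in 3 and 19457896 to 19538578 in 2). The labelled tissue was checked in the RNA-seq libraries: the summed level of 4 spermatid markers (PRM1, TNP1, ODF1 and AKAP4) was 23135 to 100953 TPM (transcript abundance scaled to library size and transcript length) in testis and at most 931 TPM in the other glands, and 4 Leydig cell markers summed to 18526 to 63338 TPM in testis and at most 3.93 TPM elsewhere. The 4 listed markers of the head of the epididymis (CST11, GPX5, RNASE10 and ROS1) ranged from 18.6 to 23863 TPM within the 6 epididymis libraries, so these differed widely from one another. In bulk tissue, fewer cells of a type and less RNA per cell cannot be told apart.

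**Figure D1:**
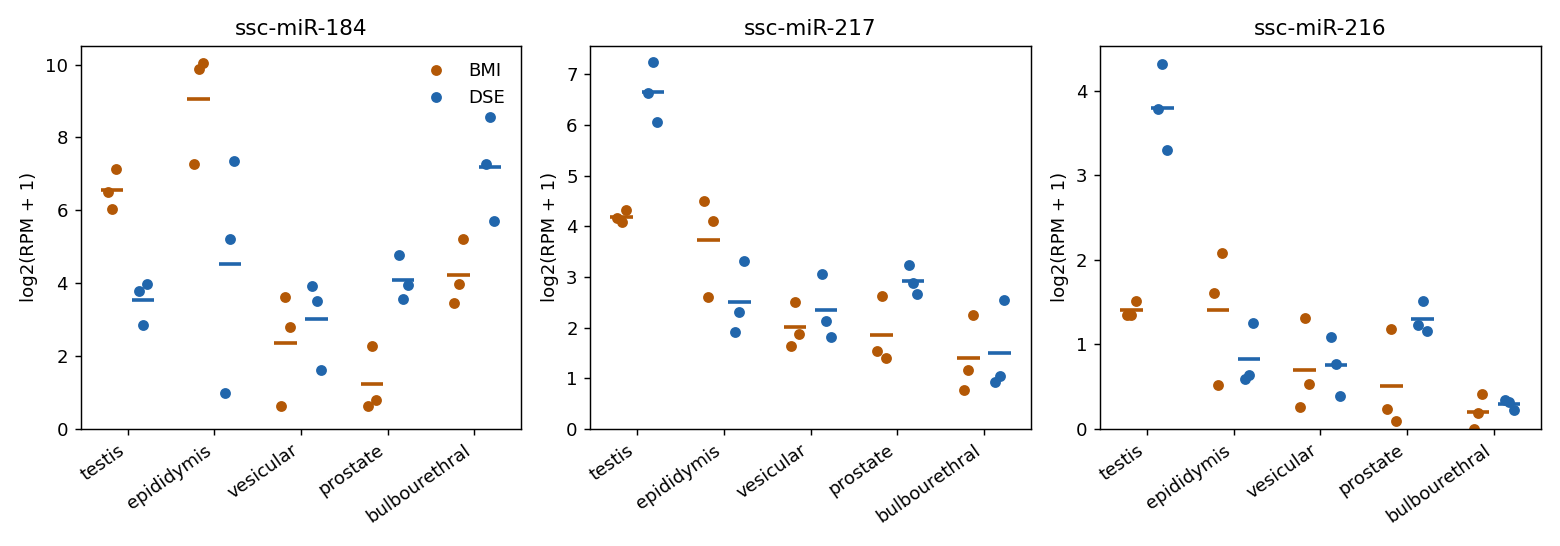
Abundance of the 3 miRNAs in each of the 30 small RNA libraries, as log2(RPM + 1) on the vertical axis, by gland and breed. Points are libraries, bars are the mean of the 3 libraries of a breed, and the vertical scale differs between panels. miR-184 is higher in BMI in testis and higher in DSE in prostate and bulbourethral gland, and miR-217 and miR-216 are highest in DSE testis.

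In the testis, miR-184 was more abundant in BMI and the clustered pair was more abundant in DSE. miR-184 measured 88.83, 64.65 and 138.1 RPM in the BMI libraries, and 12.76, 6.18 and 14.8 RPM in the DSE libraries, where 38, 73 and 102 reads lay behind the values. Every BMI library was above every DSE library, with the lowest BMI value 4.37 times the highest DSE value. Mean RPM was 8.64-fold higher in BMI, and the difference of mean log2(RPM + 1), DSE minus BMI, was -3.01 ± 0.47 (SE, n = 3 and 3).

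miR-217 in testis ran the other way. It measured 16.99, 15.87 and 19.1 RPM in BMI, and 97.71, 150.06 and 66 RPM in DSE. The groups did not overlap, the BMI libraries lay close together, and mean RPM was 6.04-fold higher in DSE, with a log2 difference of 2.45 ± 0.35 (SE, n = 3 and 3).

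miR-216 followed miR-217 at a lower level. It measured 1.54, 1.55 and 1.84 RPM in BMI testis, from 2, 4 and 5 reads. In DSE testis it measured 12.76, 18.87 and 8.85 RPM, from 38, 223 and 61 reads. The groups did not overlap, and the log2 difference was 2.40 ± 0.30 (SE, n = 3 and 3).

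Separation of the breeds in testis was common. Of the 526 entries, 19.2% had all 3 BMI libraries above all 3 DSE libraries, as miR-184 did, and 14.6% had all DSE libraries above all BMI libraries, as miR-217 and miR-216 did. In the testis RNA-seq libraries, of the 12 marker lists 2 were apart with DSE higher and 2 with BMI higher. The spermatid and Sertoli cell lists overlapped between breeds (Sertoli cells 168 to 180 TPM in BMI and 170 to 471 TPM in DSE). The 4 Leydig cell markers, none at 0, summed to 18526 to 21729 TPM in BMI and 23887 to 63338 TPM in DSE, without overlap. The 4 spermatocyte markers were apart in the other direction, with 233 to 269 TPM in BMI and 72.2 to 223 TPM in DSE, and the 4 smooth muscle markers summed to 87.6 to 95.6 TPM in BMI and 100 to 160 TPM in DSE. The DSE library numbered 2 had the highest Leydig sum, the lowest spermatid sum (23135 TPM, against 66404 to 100953 TPM in the other 5) and the lowest spermatocyte sum. Among the small RNA libraries, the one numbered 2 in DSE also had the highest miR-217 and miR-216 and the lowest miR-184. Pancreatic acinar markers, of which 8 of 9 were measured, summed to 37.1 to 41.7 TPM in BMI testis and 20.7 to 60.3 TPM in DSE testis, with overlap and with the DSE library numbered 2 lowest. The labels do not state that equal numbers mean the same boar, and the part of cell composition and of depth in these differences was not tested. Without that small RNA library the log2 differences were -2.67 for miR-184, 2.15 for miR-217 and 2.14 for miR-216.

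In the prostate gland all 3 miRNAs had higher means in DSE. miR-184 measured 0.55, 3.86 and 0.72 RPM in BMI, and 26.15, 10.83 and 14.54 RPM in DSE. The groups did not overlap, and mean RPM was 10.04-fold higher in DSE, with a log2 difference of 2.86 ± 0.63 (SE, n = 3 and 3). The direction was opposite to that in testis.

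miR-217 in prostate measured 1.9, 5.12 and 1.64 RPM in BMI, and 8.39, 6.33 and 5.36 RPM in DSE. The groups were apart by a small margin, the lowest DSE library lying 1.05 times above the highest BMI library, and the log2 difference was 1.07 ± 0.42 (SE, n = 3 and 3). miR-216 measured 0.18, 1.26 and 0.07 RPM in BMI, and 1.34, 1.84 and 1.22 RPM in DSE, so that 1 BMI library reached the DSE range. Its log2 difference was 0.79 ± 0.36 (SE, n = 3 and 3).

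A separation with DSE higher was found in 2.09% of the 526 entries in prostate. Smooth muscle markers were uneven here. The 4 markers MYH11, ACTA2, DES and CNN1, none at 0, summed to 242, 1418 and 130 TPM in BMI prostate and to 1861, 1077 and 2319 TPM in DSE prostate. The breeds overlapped, since the BMI library numbered 2 was above the DSE library numbered 2. Markers and miRNAs were measured in separate libraries, and the labels do not state that equal numbers mean the same boar. In BMI the RNA-seq library numbered 2 was highest for these markers, and the small RNA library numbered 2 was highest for all 3 miRNAs. In DSE the RNA-seq library numbered 2 was lowest for the markers. The DSE small RNA library numbered 2 was lowest for miR-184 (10.83 RPM) and highest for miR-216. Number 3 in DSE was highest for the markers in RNA-seq and lowest for miR-217 in small RNA. The part of muscle content in the prostate differences was not tested.

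In the bulbourethral gland the breeds were apart for miR-184 alone among the 3. It measured 10.02, 14.85 and 35.99 RPM in BMI, and 154.5, 379.04 and 50.85 RPM in DSE, a mean 9.60-fold higher in DSE with a log2 difference of 2.96 ± 0.98 (SE, n = 3 and 3). The lowest DSE library was 1.41 times the highest BMI library, and 1.33% of entries were apart in this direction. That share is on the deposited scale, where the median entry of this gland differed by -0.41 (log2, DSE minus BMI).

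miR-217 in the bulbourethral gland measured 0.69, 1.25 and 3.72 RPM in BMI, and 0.89, 1.05 and 4.8 RPM in DSE, with overlapping groups and a log2 difference of 0.11 ± 0.68 (SE, n = 3 and 3). miR-216 lay between 0 and 0.33 RPM in the 6 libraries, from 0 to 5 reads each, so a breed difference could not be detected at this depth. The BMI library at 0 allows up to 0.229 RPM, the worth of 3 reads. The markers of skeletal muscle were uneven here, summing to 514, 4.12 and 2.61 TPM in BMI and to 0.959, 32.4 and 1793 TPM in DSE. Within BMI the order of these markers by number was the reverse of that of miR-184. In DSE the RNA-seq library numbered 3 was highest for these markers, and the small RNA library numbered 3 was lowest for miR-184. The rest of the DSE order was not reversed. The labels do not state that equal numbers mean the same boar. The part of skeletal muscle content in the miR-184 difference was not tested.

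The epididymis held the highest miR-184 values of the series. They were 152.35, 933.43 and 1051.86 RPM in BMI, and 0.97, 35.99 and 163.6 RPM in DSE. The highest DSE library exceeded the lowest BMI library, and the DSE libraries spanned more than the breeds differed. The log2 difference was -4.54 ± 2.08 (SE, n = 3 and 3), and -2.77 without the DSE library at 0.97 RPM.

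The other members were lower in the epididymis. miR-217 measured 21.55, 5.05 and 16.32 RPM in BMI, and 2.77, 3.97 and 8.94 RPM in DSE, with overlap and a log2 difference of -1.22 ± 0.71 (SE, n = 3 and 3). miR-216 measured 2.05, 0.43 and 3.22 RPM in BMI, and 0.51, 0.56 and 1.38 RPM in DSE, also with overlap. The epididymis markers named above summed to 18.6, 23863 and 22.9 TPM in BMI and to 9015, 197 and 746 TPM in DSE, an order by number that miR-184 followed in neither breed. In DSE the RNA-seq library numbered 1 was highest for these markers, and the small RNA library numbered 1 was lowest for miR-184. The labels do not state that equal numbers mean the same boar. Pancreatic acinar markers stood at 2871 TPM in the BMI library numbered 2 and at 0.823 to 5.81 TPM in the other 5, while miR-217 was lowest of its breed in the BMI small RNA library numbered 2. Leukocyte markers (PTPRC, CD3E, CD68 and MS4A1) were apart between breeds, with 93.5, 63.2 and 61.8 TPM in BMI and 5.95, 35.2 and 44.9 TPM in DSE. Within DSE they had the order of miR-184 by number, and within BMI the opposite order. The part of leukocyte content and of sampling position along the epididymis was not tested.

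In the vesicular gland no member was apart between breeds on the deposited scale. miR-184 measured 0.53, 11.32 and 5.97 RPM in BMI, and 14.23, 10.33 and 2.06 RPM in DSE. miR-217 measured 2.11, 4.64 and 2.67 RPM in BMI, and 7.37, 3.38 and 2.52 RPM in DSE. The values of miR-216 ran from 0.2 to 1.48 RPM in BMI and from 0.31 to 1.13 RPM in DSE. The log2 differences were 0.67 ± 1.15, 0.33 ± 0.45 and 0.05 ± 0.37 for miR-184, miR-217 and miR-216 (SE, n = 3 and 3), each smaller than its own SE. Of the 12 marker lists, 6 were apart between breeds here, 5 higher in BMI (among them leukocytes, 20.7 to 40.6 TPM against 14.5 to 18.7 TPM, and urothelium, 86.7 to 170 TPM against 58.4 to 79.8 TPM) and 1, skeletal muscle, higher in DSE (4.50 to 17.7 TPM against 0.304 to 2.11 TPM).

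**Figure D2:**
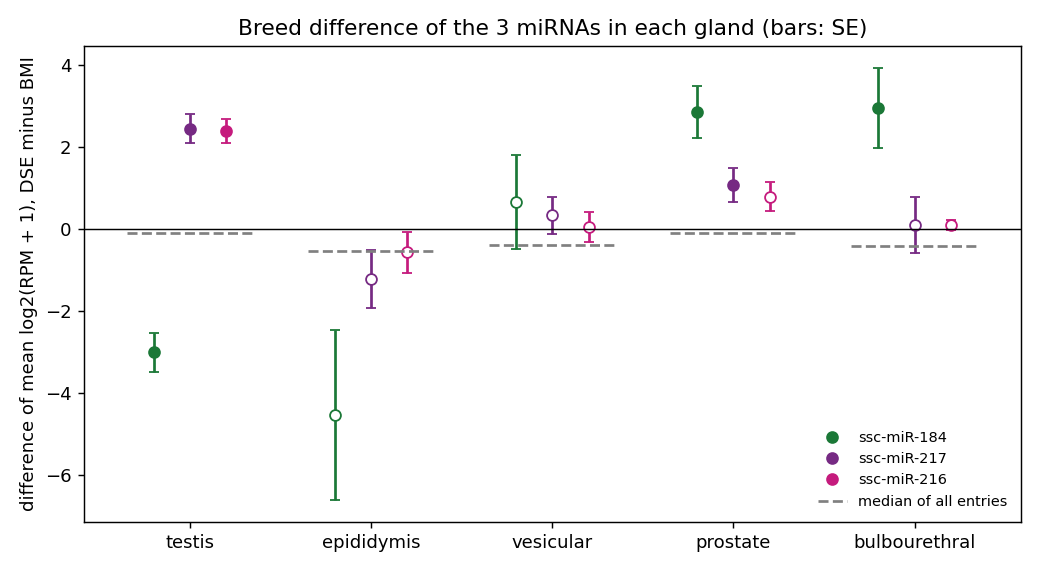
Difference of mean log2(RPM + 1), DSE minus BMI, for each miRNA and gland, with bars of 1 SE (3 and 3 libraries). Filled points mark glands where the libraries of the breeds do not overlap, open points those where they do, and dashed lines give the median over the 526 entries, from -0.54 in epididymis to -0.09 in prostate gland. miR-184 lies at -3.01 in testis and at 2.86 and 2.96 in prostate and bulbourethral gland.

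The difference between glands, averaged over the breeds, was not used in choosing the miRNAs and was tested with limma on log2(RPM + 1) over all 30 libraries, with Benjamini-Hochberg adjustment over the 526 entries. A pair of glands was called at an adjusted p under 0.05 and an absolute log2 difference of at least 1. For miR-184, 7 of the 10 pairs of glands were called. The order of its means on the log2 scale was epididymis (6.79), bulbourethral gland (5.70), testis (5.04), vesicular gland (2.68) and prostate gland (2.66). Epididymis and bulbourethral gland differed by 1.09 ± 0.76 (SE, adjusted p = 0.346), and bulbourethral gland and testis by 0.66 ± 0.76 (SE, adjusted p = 0.422). Vesicular and prostate gland were nearly equal, 0.02 apart (SE 0.76), and both were below the other 3 glands.

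This order is that of the mean of both breeds, and it was not the order within each. In BMI the means fell from epididymis (9.06) to testis (6.55), bulbourethral gland (4.22), vesicular gland (2.35) and prostate gland (1.23). In DSE bulbourethral gland was highest (7.18), followed by epididymis (4.52), prostate gland (4.10), testis (3.54) and vesicular gland (3.01). The difference of bulbourethral gland minus testis was -2.33 in BMI and 3.65 in DSE, without overlap of the libraries in either breed. That of prostate gland minus testis was -5.32 in BMI, without overlap, and 0.56 in DSE, with overlap.

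Averaged over the breeds, miR-217 was higher in testis than in each of the other 4 glands. Its mean was 5.42 in testis, 3.12 in epididymis, 2.39 in prostate gland, 2.17 in vesicular gland and 1.44 in bulbourethral gland on the log2 scale. It was lower than in testis by 2.29 ± 0.37 in epididymis (SE, adjusted p = 4.3e-06) and by 3.97 ± 0.37 in bulbourethral gland (SE, adjusted p = 2.57e-10). The fifth pair called was bulbourethral gland against epididymis, where it fell by 1.68 ± 0.37 (SE, adjusted p = 0.0011). From epididymis downward, neighbours in this order did not pass. The gap between testis and epididymis was mostly that of DSE, where the means were 6.64 and 2.51 on the log2 scale. In BMI they were 4.19 and 3.74, with overlapping libraries. The BMI testis libraries were above all BMI libraries of vesicular, prostate and bulbourethral gland.

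For the mean of both breeds, miR-216 was called in 4 pairs, each of them testis against another gland. Its mean was 2.60 in testis and between 0.25 and 1.11 in the other glands on the log2 scale, and it fell by 1.48 to 2.35 from testis (adjusted p of 5.37e-06 for epididymis and 1.95e-09 for bulbourethral gland). In BMI its means in testis and epididymis were both 1.40, with overlapping libraries, while in DSE they were 3.80 and 0.83.

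Differences from testis were the rule in this table. Of all entries, 64.1% were called between epididymis and testis, 70.7% between vesicular gland and testis, 62.0% between prostate gland and testis and 67.1% between bulbourethral gland and testis. Away from testis the shares were 21.9% for vesicular gland against epididymis, 12.0% for prostate gland against epididymis, 17.3% for bulbourethral gland against epididymis, 14.4% for prostate against vesicular gland, 24.7% for bulbourethral against vesicular gland and 12.5% for bulbourethral against prostate gland. The median entry was lower than in testis in each of the other glands, by 1.24 on the log2 scale in epididymis and by more in the others (1.28 in bulbourethral, 1.29 in prostate and 1.50 in vesicular gland). RPM is a share of all miRNA reads, and 1 entry, ssc-miR-148a-3p or ssc-miR-143-3p, held 20.8 to 32.3% of the reads in testis libraries and 30.0 to 79.0% elsewhere.

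Scaling by size factors moved the other glands upward against testis. With factors that bring the median entry to within 0.11 of equality, miR-217 fell by 2.50 from testis to bulbourethral gland, by 1.64 to prostate gland and by 1.52 to vesicular gland, all called, and by 0.90 to epididymis, not called. miR-216 was then called only between bulbourethral gland and testis, where it fell by 1.37 (adjusted p = 2.63e-05). miR-184 in vesicular and prostate gland no longer passed against testis (-0.67 and -1.01, adjusted p = 0.477 and 0.266). Its excess over testis grew in epididymis from 1.74 to 3.10 (adjusted p = 0.00142) and in bulbourethral gland from 0.66 to 2.24 (adjusted p = 0.0144), both then called. It was still called higher in bulbourethral gland than in vesicular gland (2.91) and prostate gland (3.25), and still called lower in those glands than in epididymis (-3.77 and -4.11). With edgeR on whole reads of 28 libraries, scaled by TMM, miR-217 in epididymis (-0.70, adjusted p = 0.255) and in vesicular gland (-1.16, adjusted p = 0.0569) was not called against testis, nor was miR-184 in vesicular gland (-0.0029, adjusted p = 0.9998) or prostate gland (-0.69, adjusted p = 0.463). The same fit left miR-216 in epididymis (-0.61, adjusted p = 0.448), vesicular gland (-0.50, adjusted p = 0.528) and prostate gland (-0.64, adjusted p = 0.370) uncalled against testis. It called miR-184 higher than testis in epididymis (4.05, adjusted p = 0.00043) and bulbourethral gland (2.97, adjusted p = 0.0027). It also called miR-216 lower in bulbourethral gland than in epididymis (-2.003, adjusted p = 0.023), vesicular gland (-2.11, adjusted p = 0.0149) and prostate gland (-1.97, adjusted p = 0.0294), which limma on the deposited scale did not.

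By median RPM over the 6 libraries of a gland, and with repeated entries counted once, miR-184 ranked from 113 of 501 in epididymis to 240 in prostate gland. miR-217 ranked from 232 in testis to 331 in bulbourethral gland, and miR-216 from 322 in prostate gland to 415 in bulbourethral gland. Within a breed miR-184 stood higher in some glands, at 62 of 504 in BMI epididymis (median 933.43 RPM, against 10.73 RPM for the median entry) and at 98 in DSE bulbourethral gland, and lower in others, at 357 in BMI prostate gland. In testis miR-217 ranked 278 in BMI and 176 in DSE, and miR-216 ranked 410 and 296.

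miR-217 and miR-216 had similar patterns, and that of miR-184 was less like theirs. Across the 30 libraries Pearson's r of log2(RPM + 1) was 0.95 for miR-217 with miR-216, and 0.77 after the mean of each breed and gland was removed. For miR-184 it was 0.18 with miR-217 and 0.09 with miR-216, and 0.25 and 0.37 after the group means were removed. These are descriptions over libraries that share glands, breeds and depth. miR-217 was above miR-216 in all 30 libraries, with a median ratio by gland of 5.33 in prostate gland to 9.10 in testis among the libraries where miR-216 was above 0.

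**Figure D3:**
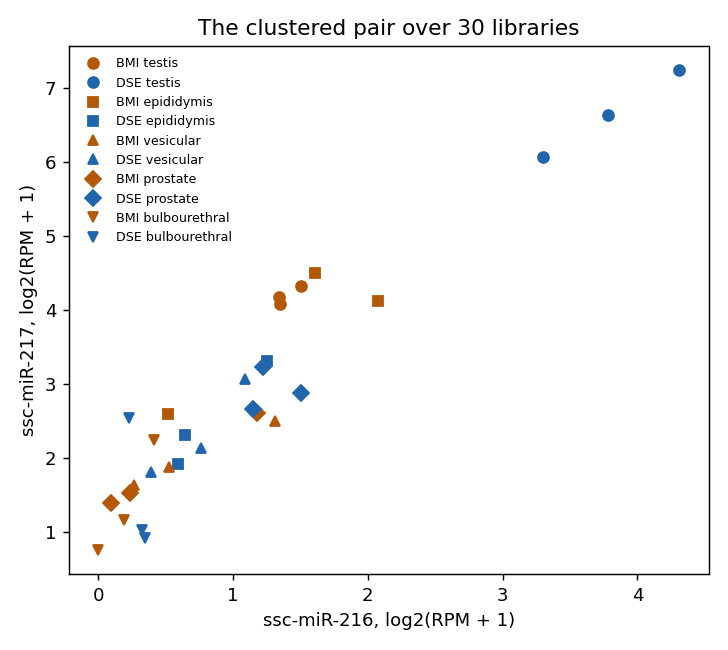
miR-217 against miR-216 in 30 small RNA libraries, both as log2(RPM + 1), with the gland as the shape and the breed as the colour of the point. The 3 DSE testis libraries stand apart at the upper right, and the rest lie along 1 band (r = 0.95 over all 30).

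The entries most like each member were found over the same 30 libraries. For miR-184 they were ssc-miR-323 (r = 0.61), ssc-miR-196a (0.58) and a predicted miRNA on an unplaced contig (0.57). For miR-217 they were the predicted miRNAs chr3_24790 (0.87) and chr4_28420 (0.86) and ssc-miR-670 (0.86). For miR-216 they were ssc-miR-670 (0.89), chr4_28420 (0.86) and chr4_27487 (0.85). After the group means were removed, the closest were ssc-miR-504 (0.71) followed by ssc-miR-9 and ssc-miR-9-1 (0.62 each) for miR-184. For miR-217 they were then ssc-miR-23a (0.69), ssc-miR-378b-3p (0.67) and ssc-miR-218b (0.66), and for miR-216 ssc-miR-382 (0.57), ssc-miR-378 (0.56) and ssc-miR-196a (0.56). High r over all libraries for the clustered pair came with a high level in testis, which the removal of group means takes away.

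The genes beside the loci were measured by RNA-seq, which the choice of miRNAs did not use. The precursors themselves have no row in the TPM table. RASGRF1, a guanine nucleotide exchange factor for Ras, measured 0.546, 0.425 and 0.572 TPM in BMI testis and 0.123, 0.0745 and 0.127 TPM in DSE testis. The groups did not overlap, BMI being higher as for miR-184, at a level under 1 TPM. The log2(TPM + 1) difference, DSE minus BMI, was -0.45 ± 0.06 (SE, n = 3 and 3), with mean TPM of 0.514 in BMI and 0.108 in DSE. The unadjusted p from limma was 0.000275 and the adjusted p was 0.0726 over 19796 genes. RASGRF1 therefore met neither part of the call rule. With every testis library under 1 TPM, a difference of 1 on this log2 scale could not be reached, whatever the p.

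RASGRF1 was highest in epididymis, where miR-184 was also highest in BMI, though not in DSE, in which miR-184 was highest in bulbourethral gland. It measured 7.85, 4.93 and 8.17 TPM in BMI and was listed at 0, 6.24 and 5.01 TPM in DSE. The fitted difference was -1.16 ± 0.85 (SE, adjusted p = 1 from limma, n = 3 and 3). In vesicular, prostate and bulbourethral gland RASGRF1 lay at or under 0.0388 TPM in every RNA-seq library. miR-184 measured 50.85 to 379.04 RPM in the small RNA libraries of DSE bulbourethral gland, which are separate libraries. A link between RASGRF1 and miR-184 was not tested.

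**Figure D4:**
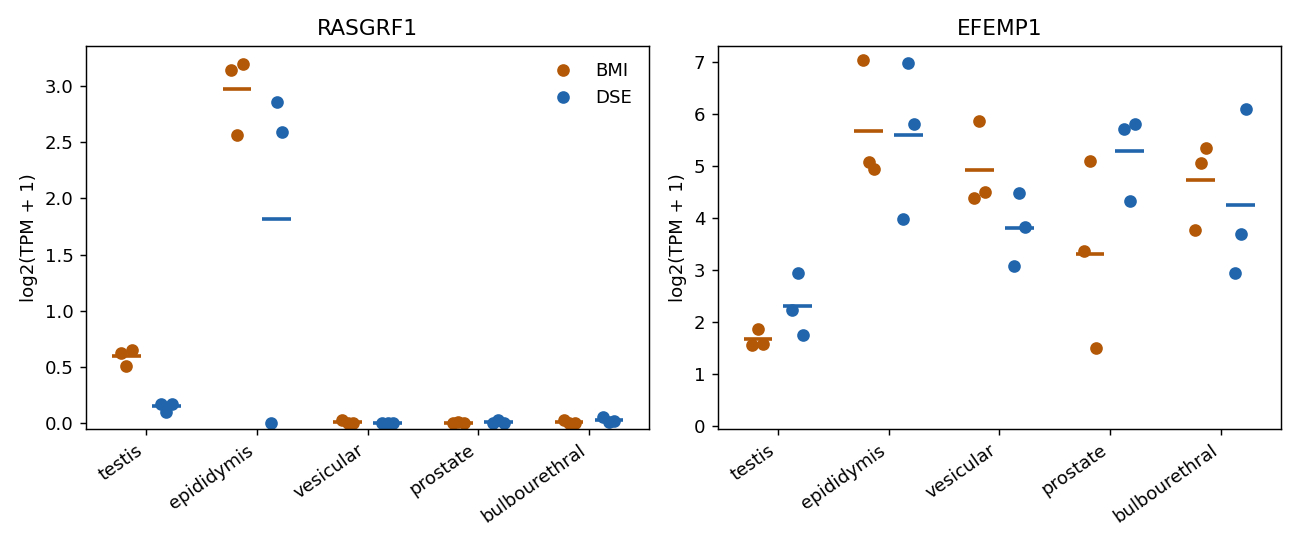
Level of RASGRF1, beside mir-184, and EFEMP1, beside the mir-217 and mir-216 cluster, as log2(TPM + 1) in each RNA-seq library by gland and breed. Points are libraries and bars the mean of 3. RASGRF1 is above 1 TPM in epididymis libraries alone, and 1 DSE epididymis library is at 0.

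CCDC85A, a coiled-coil protein gene, and EFEMP1, which encodes an extracellular matrix glycoprotein, flank or span the cluster. CCDC85A measured 0.69 to 1.32 TPM in BMI testis and 0.79 to 1.46 TPM in DSE testis, a log2 difference of 0.08 ± 0.17 (SE, adjusted p = 0.83 from limma), where miR-217 differed by 2.45. EFEMP1 measured 1.96, 2.65 and 1.97 TPM in BMI testis and 3.68, 6.72 and 2.36 TPM in DSE testis, a log2 difference of 0.64 ± 0.34 (SE, adjusted p = 0.463). In prostate EFEMP1 measured 9.26, 33.1 and 1.84 TPM in BMI and 51.7, 19.0 and 54.9 TPM in DSE, again with the BMI library numbered 2 highest of its breed. ANKRD34C did not exceed 0.0591 TPM in any library and was not tested. Of the 3 genes tested, 0 were called in any gland by limma, and 1 had an unadjusted p under 0.05, which was RASGRF1 in testis. Outside epididymis RASGRF1 lay under 1 TPM in every library, so it could not meet the call rule there. Of all 19796 genes in testis, 0.197% were called and 12.6% had an unadjusted p under 0.05.

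Full-length Iso-seq reads, with 1 library per breed and gland, named no isoform of RASGRF1 or ANKRD34C. CCDC85A had 2 isoforms with 0 to 4 reads per library, and EFEMP1 had 6 isoforms with 0 to 48 reads per library.

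The targets of the miRNAs were taken from lists of genes that general knowledge links to each, chosen without regard to pig sequence. A match to a seed was searched in the longest-coding RefSeq mRNA of each gene, on its own strand and in the 3′ untranslated part. The motifs were TCCGTCC for miR-184, ATGCAGT for miR-217 and TGAGATT for miR-216, each the reverse complement of bases 2 to 8. They were found in 3.75%, 10.4% and 11.0% of 18129 genes. Of the listed genes with such a sequence, 3 of 7 held the miR-184 motif, 6 of 12 the miR-217 motif and 4 of 10 the miR-216 motif. Genes with a match had long untranslated parts (median 2242, 2956 and 2755 bases, against 853 over all), and a match is a string of letters, not a shown site.

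Some matches are printed on the strand of the mRNA, with the motif in capitals, to show what could pair with the seeds. They are AKT2 (chr6:48556209-48556215, minus strand), a kinase of insulin signalling, 1 of 2 in SIRT1 (chr14:71122632-71122638, plus strand), a protein deacetylase, 1 of 2 in EZH2 (chr9:109450766-109450772, plus strand), the histone methyltransferase of Polycomb, and JAK2 (chr1:216850554-216850560, minus strand), a cytokine receptor kinase.
miR-184 match in AKT2: tcctggctggtaatTCCGTCCa
miR-217 match in SIRT1: ggctacgctaaagaATGCAGTa
miR-217 match in EZH2: tttaggaaaagaaaATGCAGTt
miR-216 match in JAK2: tagttttaaattttTGAGATTa

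No listed target was called between breeds in any gland. The test was limma on log2(TPM + 1) within each gland, and few genes passed it at all: 0.197% of 19796 genes for testis, 0.0859% for prostate gland, 0.0253% for bulbourethral gland, 0.0152% for vesicular gland and 0.00% for epididymis. All 10 listed targets of miR-184 were tested, 11 of 12 for miR-217 and 9 of 10 for miR-216. At an unadjusted p under 0.05 there were 9 targets in prostate gland, 3 in vesicular gland, 2 in bulbourethral gland and 1 each in testis and epididymis, of 28 tested in each. The share of all genes at that threshold was 26.2% in prostate gland, 15.4% in vesicular gland, 6.07% in bulbourethral gland, 12.6% in testis and 2.44% in epididymis, and the 9 targets in prostate gland are 32.1% of the 28.

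In testis the miR-184 list had a median log2 difference of -0.05 (DSE minus BMI), the same as the median of all genes, -0.05, with 5 of 10 above 0. The miR-217 list had a median of 0.04, with 6 of 11 above 0, and the miR-216 list -0.22, with 4 of 9 above 0. The largest differences of the miR-217 list in testis were those of ATP1B1, a subunit of the sodium pump, and EZH2. ATP1B1 measured 20.8, 23.8 and 22.2 TPM in BMI and 27.9, 81.5 and 43.8 TPM in DSE (1.03 ± 0.39, SE, adjusted p = 0.374 from limma, n = 3 and 3).

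EZH2 measured 96.4, 105 and 105 TPM in BMI testis and 87.2, 28.7 and 93.8 TPM in DSE testis (-0.71 ± 0.46, SE, adjusted p = 0.518 from limma, n = 3 and 3). On the miR-216 list the largest were FOXM1, a transcription factor of dividing cells, with 119, 131 and 122 TPM in BMI and 114, 33.2 and 102 TPM in DSE, and YBX1, an RNA-binding protein, with 3714, 3719 and 4342 TPM in BMI and 3229, 1440 and 3123 TPM in DSE. The log2 differences were -0.76 ± 0.48 and -0.68 ± 0.47 (SE, adjusted p = 0.51 and 0.535). In EZH2, FOXM1 and YBX1 alike the lowest library was the DSE library numbered 2, which also had the lowest spermatid and spermatocyte marker sums given above. The part of germ cell content in these values was not tested.

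The gland chosen for the targets of miR-184 was epididymis, which had its largest log2 difference (-4.54), with overlapping breeds. Without the DSE library numbered 1 that difference was -2.77, smaller than in testis, prostate and bulbourethral gland. In epididymis its list had a median of 0.16 against 0 for all genes, with 9 of 10 above 0. SLC25A22, a mitochondrial glutamate carrier, measured 20.47, 10.9 and 11.4 TPM in BMI and 28.1, 19.4 and 13.1 TPM in DSE (0.47 ± 0.39, SE, adjusted p = 1 from limma). NUMBL, an adaptor related to Numb, measured 27.9, 4.41 and 5.55 TPM in BMI and 8.01, 25.1 and 10.2 TPM in DSE (0.45 ± 0.80, SE, adjusted p = 1). In both genes the breeds overlapped.

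In prostate gland, where all 3 miRNAs had higher means in DSE, the medians of the listed targets were above 0. They were 0.52, 0.45 and 0.65 for the lists of miR-184, miR-217 and miR-216, with 9 of 10, 10 of 11 and 9 of 9 above 0, while all genes had a median of 0.23. Medians in vesicular gland were -0.39, -0.33 and -0.22, with 0 of the targets above 0 and a median of -0.27 over all genes. In bulbourethral gland they were -0.08, -0.03 and 0.09, against 0 over all genes. The lists of miR-217 and miR-216 overlap, SMAD7 being in both, so their medians are not independent.

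**Figure D5:**
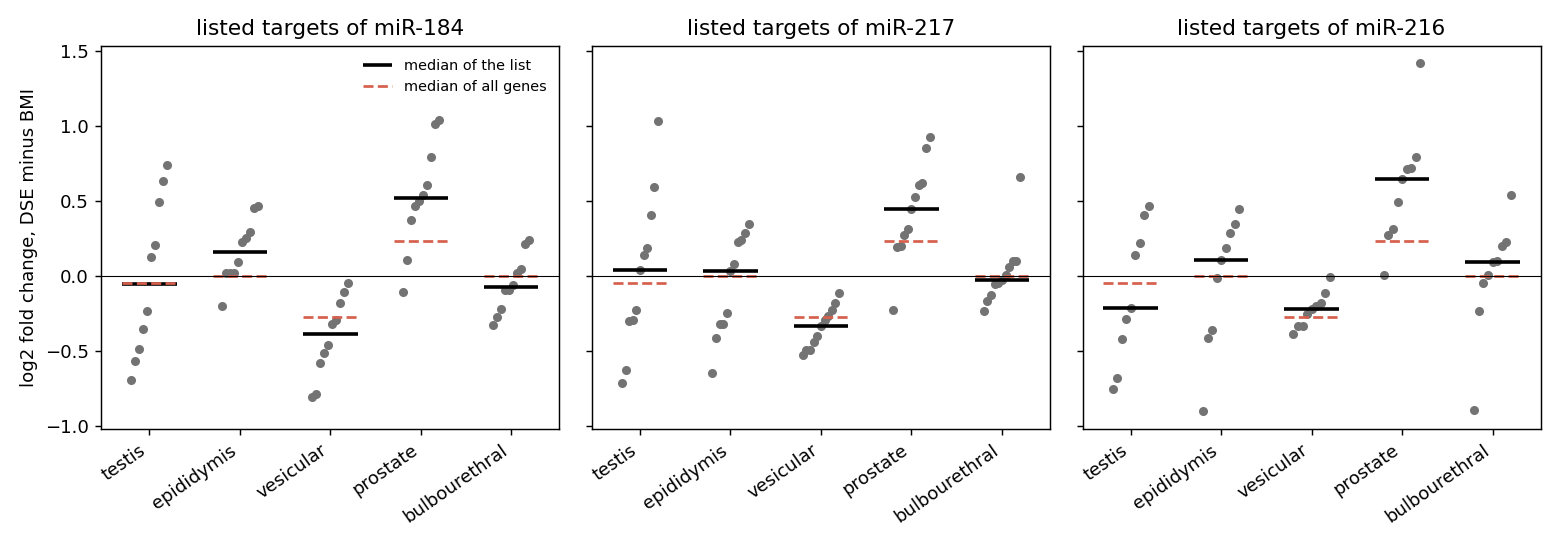
Log2 fold change, DSE minus BMI, of each tested listed target in each gland, by miRNA. Points are genes, black bars the median of the list and dashed bars the median of all 19796 genes tested. No point was called, and in prostate gland the medians of the lists lie above the median of all genes, 0.23, while some single targets lie below it.

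Genes with a seed match, listed or not, differed from the rest by little in median. In testis the 528 tested genes with a miR-184 motif had a median log2 difference of 0.02, and the 12007 genes without it -0.03. For miR-217 the medians in testis were -0.04 over 1397 genes with the motif and -0.03 over 11138 without, and for miR-216 -0.06 over 1492 and -0.03 over 11043. In bulbourethral gland genes with the miR-184 motif were at -0.05 and those without at 0. In prostate gland the medians were 0.25 with and 0.33 without the miR-184 motif, and 0.43 with and 0.31 without the miR-217 motif.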

How the data were processed

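RNA of 5 glands from BMI and DSE boars was sequenced as small RNA, as RNA-seq and as long reads. Per the labels and the study's methods, the authors trimmed small RNA reads with cutadapt, removed other small RNA classes with Bowtie 1.3.1, quantified miRNAs with miRDeep2 and deposited RPM per entry. They aligned RNA-seq reads to Sscrofa11.1 with STAR 2.7.10a, quantified with Salmon 1.9.0 and deposited TPM per transcript. For Iso-seq the authors deposited full-length read counts per isoform. The deposited GTF gave other values, positions on Sscrofa11.1, which equal those of RefSeq for the precursors.

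TPM was summed over 35552 genes (15785 with a symbol). A pseudocount of 1 was used on the log2 scale, and entries or genes with at least 1 RPM or TPM in at least 3 of 30 libraries were tested with limma 3.58.1 (R 4.3.3, eBayes with trend, Benjamini-Hochberg). The gland comparison used the means of 10 groups, and the gene comparison used the 6 libraries of a gland. The call rule was an adjusted p under 0.05 and an absolute log2 difference of at least 1. The fits were tested on simulated data. Sequences came from the RefSeq genome of the same build. RPM steps gave whole reads (at least 95% of low values within 0.1 of a whole number) in 28 libraries, 93.3% and 94.9% in the other 2, and edgeR 4.0.16 was run on the 28. The filter keeps low entries, and 3 reads were worth 0.138 to 2.32 RPM. The Iso-seq depth gives no precision for low genes.

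The miRNAs, the target lists and the marker lists were chosen with earlier results of these data known, and the search for seed matches and the ranks were added after values were seen. Named entries are the members and the 3 most alike by r. Named genes are those beside the loci, targets called in a gland and the 2 listed targets with the largest change in the gland where their miRNA differed most. Genes printed for a seed match were picked after their matches were seen. Some listed targets enter the counts and medians but are not reported here by name. Of the 12 marker lists, those that mark the labelled tissue and most of those apart between breeds in a gland are given, with some uneven ones. The unadjusted shares, the gland means by breed and the separation of marker sums were added after values were seen. For RNA-seq the labels name rRNA depletion and the methods poly-T beads.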

Additional observations from a re-analysis of the deposited data

Results flagged for a closer look

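The breed difference of ssc-miR-184 had opposite signs in different glands. In testis every DSE library was below every BMI library, with a log2 difference of -3.01, whereas in prostate gland and in bulbourethral gland every DSE library was above every BMI library, with log2 differences of 2.86 and 2.96. The difference between glands was not tested, because the miRNA was chosen on these breed values. The directions were the same with size factors (-2.69, 3.08 and 3.73) and with each library left out in turn.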

How the results depend on the processing

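Counts of gland pairs called moved by over 1.5 times under 3 alternatives: with a pseudocount of 0.1, ssc-miR-216 was called in 7 pairs in place of 4, with size factors in 1, and with edgeR on recovered reads ssc-miR-217 was called in 3 pairs in place of 5. With a pseudocount of 0.1 the described breed difference was 3.65 for ssc-miR-184 in prostate gland, and for ssc-miR-216 it was 2.90 in testis, 1.94 in prostate gland and 0.59 in bulbourethral gland. With size factors it was 2.02 and 0.28 for ssc-miR-216 in testis and bulbourethral gland. Differences between overlapping breeds also moved by over 1.5 times there, to 1.28 for ssc-miR-184 in vesicular gland, to -0.60, 0.89 and 0.60 for ssc-miR-217 in epididymis, vesicular and bulbourethral gland and to -0.29 and 0.37 for ssc-miR-216 in epididymis and vesicular gland, and the breeds then separated for ssc-miR-217 in vesicular gland and ssc-miR-216 in prostate gland. ssc-miR-184 in epididymis against testis (1.74, adjusted p = 0.039 from limma) was larger with size factors (3.10, adjusted p = 0.00142) and edgeR (4.05, adjusted p = 0.00043), and was not called with the pseudocount of 0.1 (1.66, adjusted p = 0.0889), without the filter (1.74, adjusted p = 0.0588) and without any 1 of 7 libraries (BMI testis 1 and 2, DSE testis 2, BMI epididymis 2 and 3, DSE epididymis 2 and 3, 1.03 to 1.73, adjusted p up to 0.178). Calls were gained without BMI epididymis 2 (ssc-miR-217 from epididymis to vesicular and prostate gland, -1.24 and -1.02, and ssc-miR-216 to bulbourethral gland, -1.09), DSE epididymis 1 (ssc-miR-184 from epididymis to bulbourethral gland, -1.97, and ssc-miR-217 to vesicular gland, -1.10), and any 1 of BMI vesicular gland 2, DSE vesicular gland 1, BMI bulbourethral gland 3 and DSE bulbourethral gland 3 (ssc-miR-217, vesicular gland below epididymis for the first 2, bulbourethral below prostate gland for the others). Leaving out 1 library gave 6 to 8 pairs for ssc-miR-184, 5 to 7 for ssc-miR-217 and 4 to 5 for ssc-miR-216, and turned the sign of small breed differences in vesicular and bulbourethral gland (ssc-miR-184 in vesicular gland from 0.67 to -0.20 without the BMI library numbered 1, ssc-miR-217 in bulbourethral gland from 0.11 to -0.41 without the DSE library numbered 3). The counts of listed targets and of genes beside the loci stayed at 0 under every alternative run.

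With the replicate number as a block, 7, 5 and 4 pairs were called for ssc-miR-184, ssc-miR-217 and ssc-miR-216, as without it. The labels do not say that a number marks a boar, and the numbers were not taken as pairs. Deviations of same-numbered small RNA libraries of 1 breed correlated from -0.60 to 0.55 (median 0.04), over 0.1 in 22 of 60 pairs against 24 of 120 pairs of unlike number, and in RNA-seq in 21 of 60 against 18 of 120, so that a shared boar for some numbers cannot be told from these values. The mean difference between same-numbered libraries equals the unpaired one, with an SD for ssc-miR-184 of 0.27 in testis and 1.45 (prostate gland) to 2.35 (vesicular gland) elsewhere.

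Depth limited ssc-miR-216 most, with at most 5 reads in each BMI testis and each bulbourethral library. The cause of these changes was not tested.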
